A study of Homo sapiens with 6 samples.

Results

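The control IP of this eCLIP experiment yielded 5717 read clusters over its own input, out of 205520 clusters in the 3 deposited lists. All clusters of the control list were used, with no choice among them. The experiment was made in Flp-In T-REx HEK293 cells, which derive from human embryonic kidney and accept constructs under tetracycline control at a fixed genomic site. It asked which RNAs contact FLAG-Angel1, a tagged protein related to CCR4 deadenylases, with a biochemical activity that the paper describes as poorly defined. Its 6 libraries are an IP and an input for each of 2 FLAG-Angel1 replicates and for 1 control, named FLAG-Ctrl and titled FLAG-only. All cells received 5 ng/mL tetracycline for 24 h and 400 mJ/cm2 of UV light at 254 nm, according to the labels. The labels also give FLAG-Angel1 as genotype for the control libraries, whereas the methods describe control cells that carry no FLAG fusion, so that the list is called the control here by its name. The methods mention a sample without UV exposure, which no label marks. With 1 control library there was no replicate and no test was made. The intervals given are Wilson 95% intervals and take in counting error alone.

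In eCLIP, UV light cross-links RNA to the proteins it touches, an antibody pulls down the protein of interest, and the RNA fragments that come with it are sequenced. The size-matched input comes from that lysate before any pulldown and measures how abundant each fragment was beforehand. A control IP from cells without the tagged protein, as the methods describe them here, collects whatever reads arise in its absence. Where the reads of this control came from, and whether all of them are RNA of these cells, was not tested.

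A cluster is a stretch of the genome, on one strand, where the authors' pipeline found a pile of IP reads. Each carries a log2 fold (IP against input) and the −log10 of a P. Enriched means a P under 0.05 with a log2 fold above 0, which held for 5247 control clusters (91.8%), compared with 11.7% and 40.7% of clusters in FLAG-Angel1 replicates 1 and 2. The control's median log2 fold was 5.20, with quartiles of 3.32 and 5.95. These large folds stood on few reads. The lists hold no counts, but folds and P together fit whole numbers of IP and input reads in 99.9% of the 5529 control clusters with a P between the extremes. The inferred control IP library held 209796 reads against 3249368 in its input, compared with 3373644 and 2543965 reads in the FLAG-Angel1 IPs. The median control cluster had 4 IP reads, 67.2% had 5 or fewer, and 41.1% stood over an input value of 1, which is either 1 read or a minimum that the pipeline sets.

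Control clusters were concentrated on chromosome 21. It held 545 clusters, or 9.53% of the list (interval 8.80 to 10.3%), compared with 1.81% and 1.98% of the lists of FLAG-Angel1 replicates 1 and 2. Chromosome 18 held 3.15% in the control against 1.44% and 1.38%, chromosome 13 held 3.13% against 1.61% and 1.76%, and chromosome X held 6.07% against 2.85% and 3.11%. On each of these 4 chromosomes the control's interval lay above both FLAG-Angel1 shares. The same held for the mitochondrial genome, with 0.630% (interval 0.455 to 0.870%) against 0.0739% and 0.108%, and for chromosome Y, which had 2 clusters. Chromosome 1, with 497 clusters, held 8.69% against 9.98% and 10.3%, and chromosome 19, with 481, held 8.41% against 8.09% and 7.63%. On chromosome 21 the clusters lay between positions 15491257 and 47982682. In front of the first of them the FLAG-Angel1 lists had 25 and 17 clusters, 0 of which were enriched by the authors' P in either list. Over the whole lists 11.7% and 40.7% were enriched.

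Chromosomes 13, 18 and 21 were also one-sided in strand. Over all control clusters, 53.7% lay on the plus strand (interval 52.4 to 55.0%), against 51.4% and 51.6% in the FLAG-Angel1 lists. On chromosome 21 the share was 86.1%, on chromosome 18 it was 89.4%, and on chromosome 13 it was 77.1%. Chromosome X had a plus share of 57.6% (interval 52.4 to 62.7%), above its 47.9% and 47.3% in the FLAG-Angel1 lists but no higher than the 59.7% of chromosome 19 in the control. Without chromosomes 13, 18, 21 and X it was 47.1%, so that the slight excess of plus-strand clusters over the whole list came from them. In the FLAG-Angel1 lists the plus share of chromosome 21 was 59.2% and 56.8%. On 6 chromosomes (1, 4, 5, 8, 10 and 15) the control's interval lay below both FLAG-Angel1 shares. The lowest plus shares were 24.8% of 133 clusters on chromosome 4, against 54.9% and 53.3%, and 32.3% of 130 on chromosome 15, against 47.7% and 46.7%. These shares count abutting pieces of one pile as separate clusters, and the intervals treat the pieces as independent. With abutting clusters joined, the nuclear chromosomes other than 13, 18, 21 and X had 1644 plus-strand and 1619 minus-strand stretches. The 6 chromosomes were not recounted in this way, so the part of such cutting in their low plus shares was not tested.

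**Figure D1:**
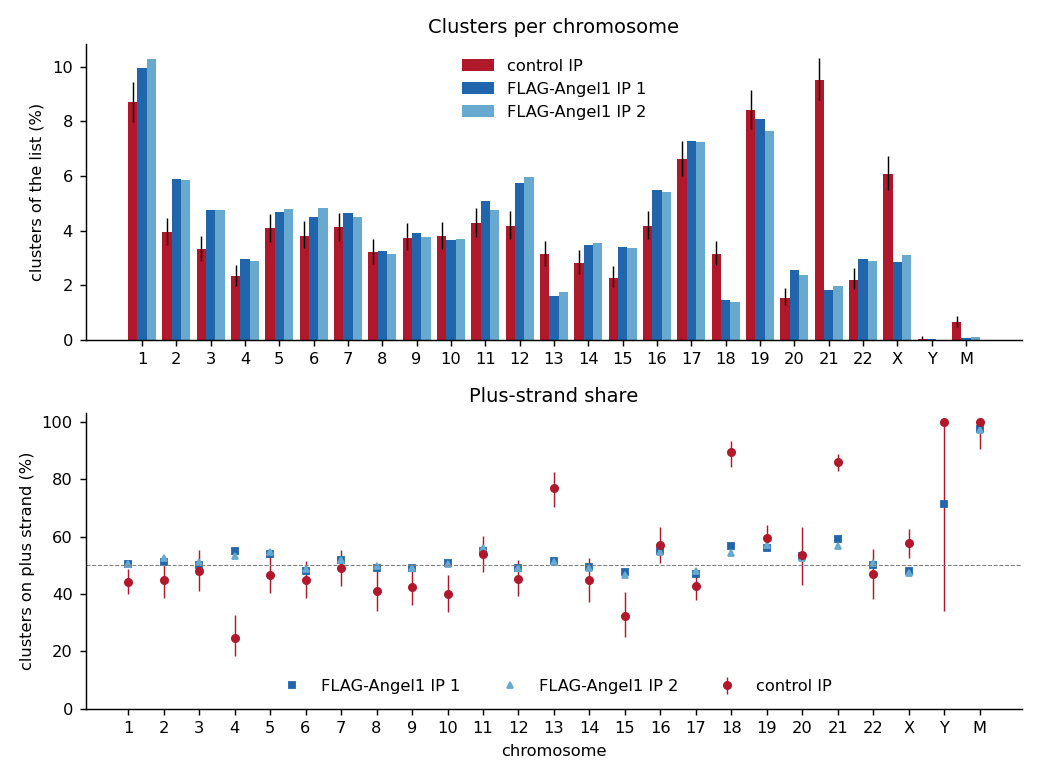
The upper panel gives the percentage of each list's clusters on each chromosome, with Wilson 95% intervals for the control, and the lower panel gives the percentage of clusters on the plus strand, with the same intervals. Chromosome 21 stands out in both panels for the control IP, at 9.53% of clusters and 86.1% on the plus strand, and chromosomes 13 and 18 stand out in the lower panel.

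The strongest clusters were more one-sided still. Of 238 control clusters with a log2 fold of 8 or more, 193 lay on the plus strand (81.1%) and 160 on chromosomes 13, 18, 21 or X. All 95 of them on chromosome 21 were on the plus strand, as were all 127 on chromosomes 13, 18 and 21 together. Of the other 78, on the remaining chromosomes, 38 were on the plus strand (48.7%), and 34 came from a single stretch of chromosome 19 described further on. That stretch had 10 on the plus strand and 24 on the minus strand, so that the near-even split of the 78 depends on it.

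Many control clusters were pieces of one pile. Clusters that abut on the same strand with no gap were joined into runs, which turned the 5717 clusters into 4128 runs. In the control, 54.3% of clusters lay in a run of more than 1 cluster, against 18.6% and 11.7% in the FLAG-Angel1 lists. There were 1453 runs of 2 clusters, 53 of 3 and 7 of 4, 1 of 5 and 1 of 6. Runs of more pieces were not wider. Their median width was 48 nt for single clusters, 39 nt for 2 clusters, 31 nt for 3 and 24 nt for 4. The run of 6 clusters, at chr10:95270394-95270437 on the minus strand, was 44 nt wide and had at most 4 reads in a cluster. The run of 5 was at chr19:33793288-33793322 on the minus strand, with at least 403 reads.

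Runs on the plus strand of chromosomes 13, 18, 21 and X were narrow. The source of these narrow piles was not tested, and their values do not show whether they are RNA that came with the IP. The 297 plus-strand runs of chromosome 21 had a median width of 25 nt, with quartiles of 23 and 28 nt, and a median of 8 IP reads. The 49 minus-strand runs of that chromosome had a median width of 44 nt and 3 reads. A run held 20 or more reads in 50 of the 297 and in 0 of the 49. On chromosome 18, 106 plus-strand runs had a median width of 24.5 nt and 12 minus-strand runs one of 52 nt. On chromosome 13 the medians were 26 nt for 91 plus-strand runs and 57 nt for 25 on the minus strand, and on chromosome X they were 27 nt for 136 and 46 nt for 117. The remaining nuclear chromosomes showed no such split, with medians of 50 nt over 1644 plus-strand runs and 49 nt over 1619 minus-strand runs. An input value of 1 was found in 72.7% of plus-strand runs on chromosome 21 and 86.8% on chromosome 18, compared with 27.4% of plus-strand runs elsewhere.

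Deep runs were narrow as well. Outside the mitochondrial genome, 146 runs had 20 or more IP reads. Of these, 100 were 18 to 35 nt wide, 107 lay on the plus strand and 50 on chromosome 21. The 4 chromosomes held 82 of them, 75 on the plus strand, while the other nuclear chromosomes held 64, with 32 on the plus strand. Those 64 include 12 runs of the chromosome 19 stretch described further on, 3 on the plus strand and 9 on the minus strand. Among all runs, here with the mitochondrial genome, the share 18 to 35 nt wide was 33.3% at 3 reads or fewer and 25.4% at 4 to 5. It was 34.9% at 10 to 19, 59.3% at 20 to 49 and 67.3% at 50 or more. The mitochondrial genome held 12 of the 49 runs with 50 or more reads. Depth did not always mean enrichment, since some nuclear runs of 20 or more reads had a log2 fold below 0.

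**Figure D2:**
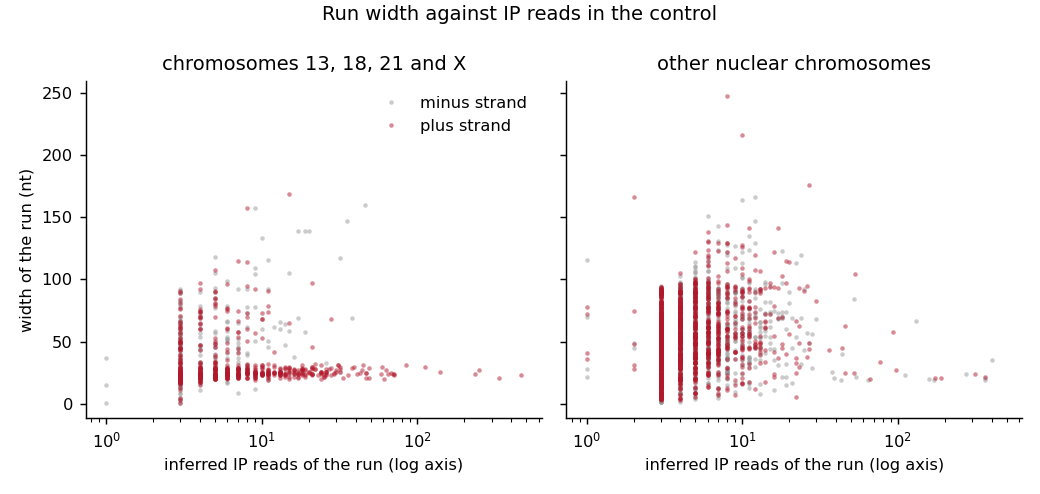
Each point is a run of abutting control clusters, placed by its inferred IP reads (log axis) and its width in nt, for chromosomes 13, 18, 21 and X on the left and the other nuclear chromosomes on the right. On the left the plus-strand runs form a band around 25 nt that reaches the highest read numbers, while on the right widths scatter around a median of 50 nt on the plus strand.

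Most of the control list was thinly spread. Its clusters fell into 3143 windows of 10 kb, of which 1424 (45.3%) held 1 cluster and 9 held 10 or more. The 10 densest windows together held 148 clusters, or 2.59% of the list. The densest was a window of chromosome 19, from 33790001 to 33800000, with 34 clusters. All 34 were enriched, with a median log2 fold of 9.93 and a lowest value of 8.12, and 17 stood at the highest −log10 P of the list, 400. FLAG-Angel1 replicates 1 and 2 had 35 and 26 clusters in this window, of which 29 and 24 were enriched.

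The chromosome 19 clusters covered only part of the window. They lay between 33792171 and 33793322, a span of 1152 nt, in 12 runs that were 19 to 35 nt wide. The plus strand held 3 runs and the minus strand 9. The run with the highest bound, at 33793288 to 33793322 on the minus strand, had at least 403 reads over 3 input reads. A plus-strand run at 33792683 to 33792704 had at least 363 reads over 8, and the minus-strand run facing it, from 33792683 to 33792706, at least 275 over 4. Where −log10 P stood at 400, the reads are lower bounds and do not rank the runs. Both strands were read at this position. In the whole control list 7 clusters overlapped one of the opposite strand, and 5 of them were here. The 12 runs together held at least 2611 reads, or 1.24% of the inferred control IP library. In FLAG-Angel1 replicate 1 each of the 12 runs held a cluster, and in replicate 2 the exception was the minus-strand run at 33792263 to 33792283, which had 39 reads in the control.

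**Figure D3:**
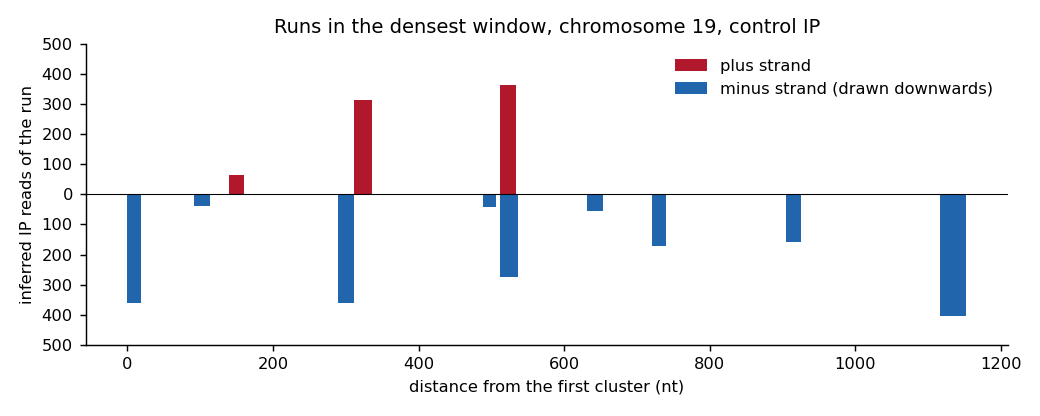
Bars are the 12 runs of the densest control window, on chromosome 19, by distance in nt from the first cluster and by inferred IP reads, with the plus strand upwards, the minus strand downwards and reads at their lower bounds where −log10 P is 400. Narrow piles, the highest bar drawn at a lower bound of 403 reads, are separated by stretches without clusters, and one pair faces each other on opposite strands.

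The other dense windows held weaker signal. The mitochondrial window from 1 to 10000 had 29 clusters, 3 of them enriched, with a median log2 fold of −0.26. A window of chromosome 7 from 26230001 had 12 clusters with a highest log2 fold of 2.08. On chromosome X, the windows from 73060001 and from 73040001 held 12 and 11 clusters, 0 of them enriched by the authors' P, with highest log2 folds of −0.55 and 0.46. Windows of chromosome 11 (from 65270001, 11 clusters), chromosome 1 (from 35650001, 10 clusters), chromosome 15 (from 66790001, 10 clusters), chromosome 3 (from 184040001, 10 clusters) and chromosome 5 (from 132090001, 9 clusters, the one with the highest −log10 P of 4 windows with 9) had highest log2 folds of 1.41, 4.89, 2.95, 3.49 and 6.28. In each of these windows all clusters lay on a single strand. Of the 10 densest windows, the chromosome 19 window was the one with a log2 fold above 8.

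Clusters on the mitochondrial genome carried many reads without enrichment. Its 36 clusters, all on the plus strand, had a median log2 fold of −0.18, and 20 of them stood at or below 0. Counting the cluster with the most inferred reads in each run, their runs summed to 1870 reads, or 6.06% of the 30861 over all runs. Both sums contain lower bounds, so that the share is approximate. In the whole list 157 clusters had a log2 fold of 0 or below, for which the authors' P is not informative, and 33 of them were on chromosome X. The lowest, −3.59, was at chr17:7478116-7478168.

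To rank places, control clusters on one strand with gaps of at most 1000 nt were joined into 3537 loci. The 20 strongest by −log10 P, with ties ordered by log2 fold, included 8 on chromosome 21, 4 on chromosome X, 3 on chromosome 18, 2 on chromosome 19 and 1 each on chromosomes 6, 7 and 13. Of these loci 19 were on the plus strand. In each, the run with the most inferred reads, some of them lower bounds, was 20 to 35 nt wide, with a median of 24 nt. Together they held at least 5199 reads, or 2.48% of the inferred library.

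The first 6 loci contained clusters at the highest −log10 P. They were the plus-strand and minus-strand loci of the chromosome 19 window, with highest log2 folds of 11.25 and 11.02, chr21:47307671-47307691 with 10.74, chr18:44012979-44013001 with 9.98, chrX:17727759-17727782 with 9.51 and chr21:45107288-45107918 with 8.91. Reads at these 6 loci are lower bounds and do not rank them. The highest bound, at least 465 over 8 input reads, was that of the chromosome 18 locus, which is 23 nt wide. The chromosome 21 locus at 47307671 had at least 332 reads over 3, in 21 nt.

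The next loci had exact read numbers. At chr7:116411916-116412102 the deepest run had 188 reads over an input value of 1, which gave the highest log2 fold of the list, 11.51. At chr6:99284145-99284165 there were 174 reads over 3, at chr21:17150648-17150673 there were 140 over 1, and at chr18:8034069-8034098 there were 112 over 1. The locus on chromosome 13, chr13:103478477-103478500, had 70 reads over 1 in 24 nt. The twentieth locus, chr18:34243976-34243999, had 58 reads over 1 and a −log10 P of 68.9, and the one after it had 49 reads and a −log10 P of 58.0. The 5 loci with the highest log2 fold were all among the 20.

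All 20 strongest loci held a cluster on the same strand in both FLAG-Angel1 lists, against 36.5% of all 3537 control loci. An enriched FLAG-Angel1 cluster was present at 14 of the 20 in replicate 1 and at 19 in replicate 2, against 19.3% and 32.8% of all loci. Because the call depends on the IP and input sizes, the counts of the 2 replicates are not alike. The 6 without one in replicate 1 were on chromosomes 13, 18, 21 and X, and the 1 without one in replicate 2 was chrX:18777473-18777499. The control loci were ranked by the control's own P, so that only the FLAG-Angel1 values at them are independent of the ranking.

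The deepest piles of these loci had similar edges in all IPs. Only the control run with the most inferred reads was compared at each locus, and other runs of a locus were not compared. At 20 of 20 loci the FLAG-Angel1 run of replicate 1 started and ended within 5 nt of the control run, and in replicate 2 this was so at 18 of 20. The exceptions in replicate 2 were the minus-strand locus of chromosome 19, where the end differed by −13 nt, and chr21:44123706-44123730, where the start differed by −37 nt. The median run width at these loci was 24 nt in each of the 3 IPs.

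The FLAG-Angel1 IPs had fewer reads at every one of the 20 loci. Per 1000000 inferred IP reads, the control had 276 to 2216 with a median of 470, replicate 1 had 1.48 to 54.5 with a median of 12.7, and replicate 2 had 1.57 to 35.8 with a median of 8.25. At chr18:44012979-44013001 the reads were at least 465 from the control, against 172 and 81 from the much larger libraries of replicates 1 and 2. At chr21:47307671-47307691 they were at least 332, 159 and 81, and at chr7:116411916-116412102 they were 188, 62 and 37. The control exceeded replicate 1 by 24.9 to 203 times (median 40.7) and replicate 2 by 34.3 to 191 times (median 60.2), and the ranges did not overlap. These ratios take in the choice of loci by the control's signal, the control's lower bounds at the first 6 loci and 1 lower bound of 5 reads in replicate 1 at chrX:18777473-18777499. The order of the loci was similar. Over the 20 loci Spearman's rho of the reads was 0.87 between the control and each replicate and 0.97 between the replicates. How the first 6 are ordered in the control is not known, since their reads are lower bounds. These values of rho describe loci that share libraries and were chosen in the control.

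**Figure D4:**
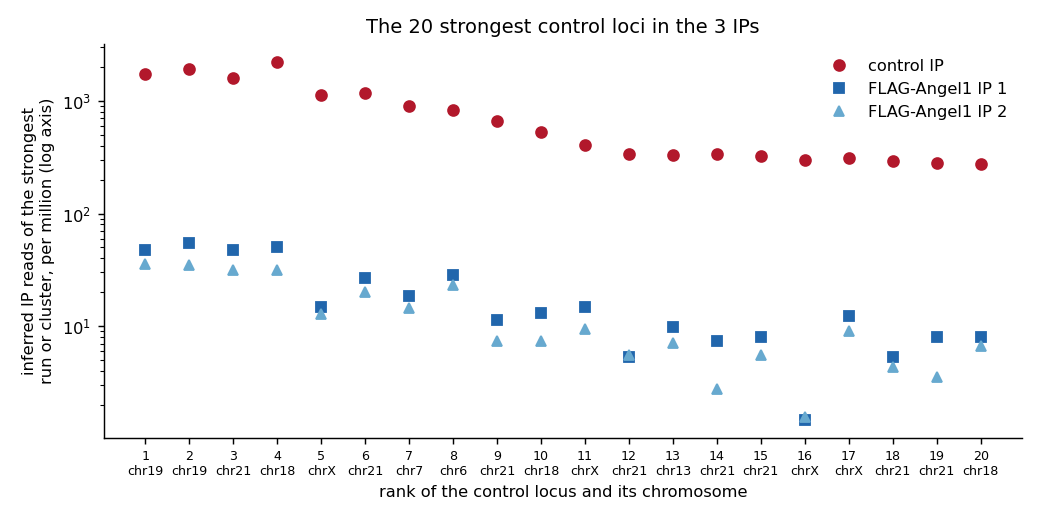
Points give the inferred IP reads per 1000000 (log axis) at the 20 strongest control loci, ordered by rank, for the control IP and both FLAG-Angel1 IPs. The control lies between 276 and 2216, drawn at lower bounds where −log10 P is 400, and both FLAG-Angel1 IPs lie below 55. The order of the loci is similar in each.

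Over all loci, deeper control loci more often had a FLAG-Angel1 cluster. Clusters cannot be called where reads are few, and the part of depth in this was not tested. Of the 3537 loci, 44.0% held a cluster of replicate 1, 43.7% one of replicate 2 and 51.3% one of either. The share with a cluster in either list was 45.8% among 1440 loci of 3 reads or fewer, 52.6% among 643 loci of 6 to 9 reads, 85.6% among 104 loci of 20 to 49 reads and 96.6% among 29 loci of 50 or more. An enriched cluster in both lists was no more frequent at 20 to 49 reads (17.3%) than over all loci (17.8%), and reached 55.2% at 50 or more. The relation to width differed with depth. Among loci under 20 reads, 37.8% of those at most 35 nt wide had a FLAG-Angel1 cluster against 55.2% of wider nuclear ones, whereas at 20 reads or more 96.3% of the narrow ones did against 74.5% of the wider ones.

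Some control loci had no FLAG-Angel1 counterpart on either strand. The one with the most reads, chr6:4428276-4428302 on the plus strand, had at least 98 and was not enriched, with a log2 fold of −0.41. The strongest by P was chr18:19321707-19321774 on the plus strand, in rank 47, with 28 reads in 4 clusters and a highest log2 fold of 8.76. It was followed by chr1:44015127-44015170 with 27 reads, and by chr12:15856440-15856496, chr13:98629998-98630023 and chr19:42784566-42784603 with 26 reads each. These 5 loci were 68, 44, 57, 26 and 38 nt wide. In all, 1723 of 3537 control loci (48.7%) had no cluster of either FLAG-Angel1 list on their own strand. Among the 1440 loci of 3 reads or fewer these were 780, or 54.2%.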

How the data were processed

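The clusters analysed are those of the control IP and, for comparison, of both FLAG-Angel1 IPs. The authors deposited, for each cluster, a log2 fold (IP against input) and the −log10 of a P. The submitters' processing notes name cutadapt, STAR, SAMtools and UMI-tools and the builds GRCh37 and hg19, without versions. Positions follow the deposited lists and count from 1. Members, lists and rules were chosen with earlier results of these data known.

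Reads were inferred. The most frequent log2 fold was read as 3 IP reads over 1, the other folds as whole-number ratios, and library sizes were fitted from steps of 12 to 30 reads over 1 (15 steps in the control, giving 209657 to 209858 IP reads). Multiples of each ratio were then matched to the authors' P by Fisher's exact test or a chi-square test, within a tolerance of 0.0001 on the −log10 scale (times the value itself above 1). The fit for FLAG-Angel1 replicate 1 was looser, at 3203010 to 3515540 IP reads, and that for replicate 2 gave 2503016 to 2559155. Whether these are reads after removal of PCR duplicates is not given in the sources used here. Clusters at the highest −log10 P, 400, were given the smallest numbers of reads whose P lies beyond 227, the highest value under it, and clusters at a −log10 P of 0 the smallest ratio. The procedure was tested on simulated data.

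Overlap means at least 1 shared nt on the same strand. Named places were the 20 strongest loci, the 5 highest log2 folds, the 10 densest windows of 10 kb and the longest runs; a locus after the twentieth, loci without a FLAG-Angel1 cluster, facing runs and the lowest cluster were added after their values were seen. No gene name, annotation class or sequence is given, since a GRCh37 annotation was not used here. Alternatives covered cluster thresholds, window sizes, joining gaps, rankings, strand and replicates. Python 3.11.15, numpy 2.4.6, pandas 2.3.3, scipy 1.17.1 and matplotlib 3.10.9 were used.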

Additional observations from a re-analysis of the deposited data

How the results depend on the processing

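No paired analysis was possible because the control has 1 library and no result comes from a test. The causes of the shifts below were not tested. Chromosome 21 held 13.7% of clusters at a P under 0.001 with a log2 fold of at least 3 and 8.38% with abutting clusters joined, chromosomes 18 and 13 held 4.58% and 4.13% at the stricter threshold, and chromosome X held 5.45% among enriched clusters. The 10 densest windows held 2.19% at 5 kb, 3.32% at 50 kb and 2.04% with enriched clusters. The plus-strand share was 55.9% with abutting clusters joined and, in an alternative chosen after seeing the data, 47.1% of unjoined clusters without chromosomes 13, 18, 21 and X. Clusters in runs made up 55.7% with gaps up to 50 nt and 57.7% among enriched clusters. Ranking by summed reads kept 11 of the 20 strongest loci, and ranking by log2 fold kept 16. Among the 20, 70.0% held enriched clusters of both replicates, and either replicate alone gave 100% to 100%. Of all loci, both replicates were found at 17.8% with enriched partners, 38.5% with no gap joined and 25.7% with 50% of the locus covered, and leaving out a replicate gave 43.7% to 44.0%. Reading the most frequent log2 fold as 2, 4 or 6 reads, added after seeing the data, matched 0.072%, 0.018% and 0.018% of clusters. Of 44 alternatives, 22 kept the value within its interval or within 1.5 times of a count. A median of 4 IP reads limits the precision of the fold of any single cluster.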
